A study of Schizosaccharomyces pombe with 16 samples.

Results

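The comparison set a fission yeast (Schizosaccharomyces pombe) strain whose RNA polymerase II carried both T4A and S7A directly against one that carried both S2A and S7A. Its members were the 4 libraries with those strain labels, 2 biological replicates of T4A-S7A and 2 of S2A-S7A, of 16 libraries in all. Both strains share S7A and the markers h- ade6 ura4-D18 leu1-32, so what separates them by label is threonine 4 replaced by alanine in the first and serine 2 replaced by alanine in the second. The other strains drawn on below are T4A (h-) and S2A (h+), which have the same pair of changes without S7A, and S7A and WT (both h-), with 2 libraries each. For fip1, values are also given for Y1F and Y1F-S7A (both h-, phenylalanine for tyrosine 1), again with 2 libraries each. The labels give 1 strain per genotype, so a genotype and other differences between its strain and the next cannot be told apart. Cells grew in YES medium at 30 °C to an OD600 of 0.4 to 0.7, and polyadenylated RNA was sequenced strand by strand.

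RNA polymerase II ends in a long tail, called the carboxy-terminal domain (CTD), at the end of subunit Rpb1 and made of heptads of the order tyrosine, serine, proline, threonine, serine, proline, serine. Kinases and phosphatases change the phosphate marks on the tail as the enzyme moves along a gene, and capping, termination, 3′ end processing and chromatin factors bind these marks. In fission yeast, transcription of non-coding RNA upstream of phosphate genes and termination of that RNA are known to set how much of those genes is made, and the serine 2 mark is known for its part in the switch to mating. The heptads show where the strains differ by label. A stretch of 8 consecutive consensus heptads of rpb1 (SPBC28F2.12) is printed from the RefSeq reference (ASM294v3, II:1596288-1596455, plus strand, coding sequence), 5′ to 3′, with the codons of heptad positions 2, 4 and 7 in capitals.
rpb1 heptads: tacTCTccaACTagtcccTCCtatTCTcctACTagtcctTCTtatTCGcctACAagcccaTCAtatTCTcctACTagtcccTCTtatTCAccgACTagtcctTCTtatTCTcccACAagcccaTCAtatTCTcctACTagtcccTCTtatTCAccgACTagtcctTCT
These are reference letters and not those of the strains, whose own CTD alleles were not read here. The reference Rpb1 has 24 consensus heptads, of which the longest unbroken run holds 20. The strain labels name a CTD allele for WT too. How many heptads the strains' alleles hold was not read here, and the number may differ from the reference. In T4A-S7A the codons of positions 4 and 7 would encode alanine by label, and in S2A-S7A those of positions 2 and 7.

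In total, 486 features were higher and 624 lower in T4A-S7A than in S2A-S7A, which is 1110 of 6420 tested (17.3%; 7.57% higher and 9.72% lower). Calls rest on edgeR's quasi-likelihood test with an adjusted p below 0.05, and "rose", "fell", "higher" and "lower" below describe T4A-S7A relative to S2A-S7A. Levels are TMM-scaled CPM (counts per library scaled to a common total), given library by library. Changes are log2 fold changes, T4A-S7A over S2A-S7A, ± SE, with 2 libraries per strain. In a fit with the replicate number as a block, 1250 were higher and 1162 lower, 2412 in all, the 1110 among them. Counts given below for gene lists and RNA classes are to be read against these shares, without and with the block. The libraries of the strains did not overlap in 3347 of the 6420 features tested. Where non-overlap is given below for single genes, it describes their values and adds little support. With scaling on protein-coding features alone, an alternative added after the data were seen, the 1110 calls became 1069 and the share of higher ones became 32.5%, against 43.8%. Leaving out T4A-S7A replicate 1 or 2 gave 639 or 538 calls, and leaving out S2A-S7A replicate 1 or 2 gave 983 or 503. Of the 1110, 367 were called in each of these 4 fits.

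The lower calls were the larger ones. Among the higher calls 83 lay beyond 2-fold, 4 beyond 4-fold and 0 beyond 8-fold, while among the lower calls the counts were 491, 254 and 103. The median size was 0.69 on the log2 scale among the higher calls and 1.73 among the lower calls. Over all features tested the median change was 0.01. In RNA of a whole culture, fewer cells with a transcript and less of it per cell cannot be told apart. Depth ran from 18677921 to 31254978 reads per library over the 16 libraries, and both ends of that range were in the strains compared.

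A few marker genes were looked at first, and they cannot show which CTD allele a strain carries. The mutated gene rpb1 had 199 and 234 CPM in T4A-S7A, against 347 and 288 CPM in S2A-S7A, and its difference of -0.55 ± 0.18 did not pass (adjusted p = 0.0542). The fit with the replicate block gave it an adjusted p of 0.00466. Its read count cannot show which codons a strain carries. The labels list a ura4 deletion, and no ura4 read was found in any of the 16 libraries, where a count of 0 allows up to 3 per library for counting error alone. Neither ade6 (0.00 ± 0.14, adjusted p = 0.997) nor leu1 (0.10 ± 0.23, adjusted p = 0.805) passed, and the actin gene act1 did not pass either (-0.14 ± 0.22, adjusted p = 0.71). The M genes of the mating-type locus had 0 reads in each of the 16 libraries and give no check of mating type.

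Non-coding RNAs gave 387 of the 624 lower calls, and with the replicate block 570 of 1162. Of 1333 tested features annotated SPNCRNA, 387 fell (29.0%), 18 rose and 928 did not pass, with a median change of -0.73. Of 4993 tested protein-coding features, 468 rose (9.37%), 222 fell (4.45%) and 4303 did not pass, with a median of 0.08. With the block 45 non-coding RNAs rose, and of the protein-coding features 1202 rose and 559 fell. The number of non-coding RNAs that fell was 365 without S2A-S7A replicate 1, and without T4A-S7A replicate 1, T4A-S7A replicate 2 or S2A-S7A replicate 2 it was 226, 221 and 203. As a share of all reads in features, non-coding RNAs took 2.05 and 2.54% in the T4A-S7A libraries, against 2.58 and 3.29% in the S2A-S7A libraries, so the share was lower in T4A-S7A for both replicate numbers. In the S7A libraries the share was 2.14 and 2.51%.

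**Figure D1:**
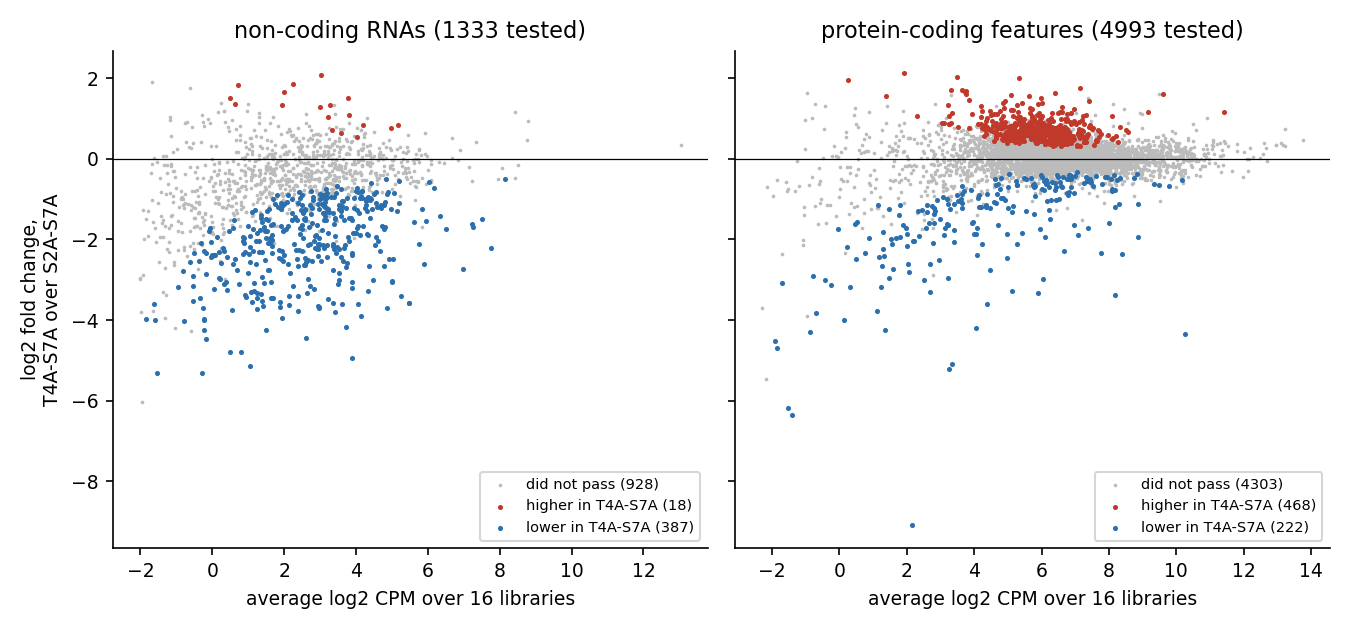
Log2 fold change of T4A-S7A over S2A-S7A (y axis) against average log2 CPM over the 16 libraries (x axis) for non-coding RNAs (left) and protein-coding features (right), 1 point per feature, red where higher and blue where lower in T4A-S7A at an adjusted p under 0.05. Of the non-coding RNAs 387 lie in the lower group and 18 in the higher one, and of the protein-coding features 222 and 468.

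The lowest non-coding RNAs by rule lay beyond 8-fold. SPNCRNA.888 (chromosome I, 3137359 to 3138684) had 1.44 and 0.95 CPM in T4A-S7A, against 34.3 and 40.8 CPM in S2A-S7A, a change of -4.94 ± 0.30 (adjusted p = 3.25e-06). SPNCRNA.803 (chromosome I, 2196440 to 2199126), antisense to the chromatin remodeller gene hrp1, had 2.57 and 3.75 CPM in T4A-S7A, against 46.7 and 45.9 CPM in S2A-S7A, a change of -3.89 ± 0.24 (adjusted p = 3.25e-06). Non-overlap of the strains' libraries was a condition for these lowest calls. The S7A means were 3.3 CPM for SPNCRNA.888 and 5.64 CPM for SPNCRNA.803. SPNCRNA.1005 fell by 4.18 on the log2 scale, SPNCRNA.1424 by 3.80, SPNCRNA.944 by 3.60 and SPNCRNA.1613 by 3.59. SPNCRNA.727 fell by 3.69 and shares 58.8% of its length with mrp1 on the same strand. SPNCRNA.1276, named for its small adjusted p (3.25e-06), fell by 3.41. SPNCRNA.322 had 7.13 and 10.3 CPM in T4A-S7A, against 60.4 and 146 CPM in S2A-S7A, but it lies within SPNCRNA.1380 on the same strand, and the reads of the pair cannot be told apart. On the other side, SPNCRNA.1431 was the highest call by rule, at 8.6 and 16.5 CPM in T4A-S7A, against 2.92 and 2.97 CPM in S2A-S7A, a change of 2.08 ± 0.40 (adjusted p = 0.00453).

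The lower calls came from non-coding RNAs with and without an antisense neighbour. Among those the deposited table lists as antisense to 1 feature, 241 of 770 fell (31.3%) and 9 rose. Of those antisense to several features, 92 of 322 fell (28.6%), and of those with none, 54 of 241 (22.4%). With the block 345, 140 and 85 fell. The protein-coding partners of the non-coding RNAs that fell were 321 in number, of which 42 rose (13.1%) and 22 fell (6.85%). Partners of the non-coding RNAs that did not pass were 719, of which 70 rose (9.74%) and 42 fell (5.84%). Over all protein-coding features tested the shares were 9.37% and 4.45%. With the block 93 rose and 38 fell of the 321 partners, and 168 rose and 91 fell of the 719.

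Single pairs of antisense RNA and gene showed opposite changes. The RNA export factor gene tho4 had 47.1 and 55.1 CPM in T4A-S7A, against 19.1 and 21.6 CPM in S2A-S7A, and rose by 1.33 (adjusted p = 0.000267), while SPNCRNA.1353 on the other strand had 6.69 and 6.12 CPM in T4A-S7A, against 14.8 and 17.4 CPM in S2A-S7A, and fell by 1.33 (adjusted p = 0.0273). The cell-surface glycoprotein gene pfl8 had 48.4 and 57.3 CPM in T4A-S7A, against 24.8 and 22.5 CPM in S2A-S7A, and rose by 1.16, while its antisense SPNCRNA.607 had 3.38 and 3.85 CPM in T4A-S7A, against 13.9 and 18.1 CPM in S2A-S7A, and fell by 2.15. In each of these 4 features the libraries of the strains did not overlap, as in 3347 of the 6420 features tested. Both pairs were picked by direction, so their changes are a description, with no test. Strand was kept in the libraries, and for 230 non-coding RNAs lying within a feature of the opposite strand the median ratio of their reads per base to those of that feature was 0.136. How far misassigned strand adds to such an RNA was not tested.

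Some small RNAs that carry no poly(A) tail in their mature form fell too. Of 38 snoRNAs tested, which guide modification of ribosomal RNA, 9 fell, 0 rose and 29 did not pass, with a median of -1.45 (23 fell and 1 rose with the block). Without T4A-S7A replicate 2 only 2 fell, and without S2A-S7A replicate 1 it was 15 and without S2A-S7A replicate 2 it was 4. The U17 snoRNA (SPSNORNA.20) had 21.4 and 11.98 CPM in T4A-S7A, against 98.9 and 106 CPM in S2A-S7A, a change of -2.61 ± 0.57 (adjusted p = 0.00902), and its call was lost without T4A-S7A replicate 2 (adjusted p = 0.0826). It shares 97.5% of its length with SPNCRNA.906 on the same strand, so the reads of the pair cannot be told apart. The box H/ACA snoRNA sno12 had 18.7 and 19.96 CPM in T4A-S7A, against 45.7 and 70.04 CPM in S2A-S7A, a change of -1.58 ± 0.29 (adjusted p = 0.00367). Libraries did not overlap for either. snoZ16 had 2.72 and 0.686 CPM in T4A-S7A, against 16.8 and 75.97 CPM in S2A-S7A, but it lies within SPNCRNA.727 on the same strand, and their reads may be shared. Its call was also lost without T4A-S7A replicate 2. snoRNAs took 0.0159 and 0.0104% of reads in the T4A-S7A libraries, against 0.0328 and 0.0574% in the S2A-S7A libraries and 0.0267 and 0.0164% in the S7A libraries. None of 7 small nuclear RNAs (median -1.53) and 5 tRNAs (median -2.06) passed, though 1 small nuclear RNA fell with the block and 1 without S2A-S7A replicate 1. Selection for poly(A) removes most of the mature forms of such RNAs, and its part in these values was not tested.

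Phosphate acquisition genes moved in both directions. Of 4 tested, 3 fell and 1 rose, and the counts were the same with the block, with RLE or protein-coding scaling, in DESeq2 and without each of the 4 libraries in turn. Upstream promoters are shown for the gene that fell most and the one that rose, each as the 250 bases before the RefSeq mRNA start (ASM294v3), with matches to a Pho7 pattern in capitals. Pho7 is the transcription factor that activates these genes, and the pattern searched on both strands was TCG, 4 bases of any kind, TT, 1 base of any kind and AA.
pho1 promoter (II:4447256-4447505, plus strand): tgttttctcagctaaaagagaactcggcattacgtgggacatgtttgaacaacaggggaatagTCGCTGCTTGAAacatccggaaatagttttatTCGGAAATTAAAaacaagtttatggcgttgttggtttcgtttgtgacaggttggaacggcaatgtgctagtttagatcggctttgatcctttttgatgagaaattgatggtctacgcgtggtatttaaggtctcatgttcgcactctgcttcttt
pho842 promoter (I:4362218-4362467, plus strand): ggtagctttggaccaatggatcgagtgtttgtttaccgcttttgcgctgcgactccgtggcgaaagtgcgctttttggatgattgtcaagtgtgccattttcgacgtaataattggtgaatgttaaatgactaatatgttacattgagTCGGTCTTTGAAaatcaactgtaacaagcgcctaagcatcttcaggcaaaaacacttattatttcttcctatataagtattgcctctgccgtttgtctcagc
The pattern was present in 258 of 4367 promoters of this length (5.9%), and in those of pho1, tgp1 and pho842 but not of pho84. Of these genes pho1 and tgp1 fell and pho842 rose. A match of letters is not a site, and the part of Pho7 in these changes was not tested.

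pho1 (SPBP4G3.02), which encodes the secreted acid phosphatase and spans 4446373 to 4449053 of chromosome II in the deposited table, had 117 and 106 CPM in T4A-S7A, against 2518 and 2004 CPM in S2A-S7A. The libraries of the strains lay far apart, and T4A-S7A was also below the means of S7A (3609 CPM) and WT (1316 CPM). As pho1 was among the lowest calls by rule, non-overlap was a condition for it and is no further support. The change of -4.34 ± 0.22 had the smallest adjusted p of all features, 1.28e-06. The deposited feature starts upstream of the reference gene and covers the promoter window printed above, so it may hold reads of other RNA from there. The phosphate transporter gene pho84 had 185 and 118 CPM in T4A-S7A, against 745 and 423 CPM in S2A-S7A, a change of -1.95 ± 0.36 (adjusted p = 0.00359), with S7A at 1136 and WT at 701 CPM. The glycerophosphodiester transporter gene tgp1 had 16.1 and 15.3 CPM in T4A-S7A, against 92.4 and 42.95 CPM in S2A-S7A, a change of -2.11 ± 0.32 (adjusted p = 0.00123), with S7A at 93.3 and WT at 21.9 CPM. For these 3 genes neither T4A-S7A library reached an S2A-S7A library.

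The transporter gene pho842 went the other way. It had 251 and 190.3 CPM in T4A-S7A, against 73.3 and 58.1 CPM in S2A-S7A, a change of 1.75 ± 0.30 (adjusted p = 0.00204), and its strains did not overlap. S7A averaged 309 CPM, nearer to T4A-S7A, and WT averaged 74.1 CPM, nearer to S2A-S7A. Non-coding RNAs next to pho84 and tgp1 were lower as well. None is given here for pho842 or for pho1, whose feature takes in upstream sequence. prt2 (chromosome II, 4442574 to 4444191), the regulatory RNA upstream of pho84, had 65.6 and 86.3 CPM in T4A-S7A, against 152 and 195 CPM in S2A-S7A, a change of -1.19 ± 0.25 (adjusted p = 0.00768). The RNA annotated as bidirectional to nc-tgp1 and non-functional (ncRNA.1343) had 17.6 and 15.9 CPM in T4A-S7A, against 32.5 and 38.01 CPM in S2A-S7A. Its change was -1.07 ± 0.19 (adjusted p = 0.00287). prt2 and pho84 thus both fell, as did ncRNA.1343 and tgp1, and prt2 was added after its values were seen, as was ncRNA.1343. prt2 shares 4.1% of its length with pho84 on the same strand, so some of their reads may be shared.

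Most regulators of the phosphate genes did not pass. Of 7 tested, csk1 rose and 6 did not pass, with a median of 0.01. csk1 encodes a kinase that activates cyclin-dependent kinases and had 44.6 and 48.8 CPM in T4A-S7A, against 25.02 and 33.7 CPM in S2A-S7A, a change of 0.67 ± 0.19 (adjusted p = 0.0282). Its call was lost with protein-coding scaling and without either T4A-S7A library or S2A-S7A replicate 1. Values for pho7, the activator gene, were 177 and 196 CPM in T4A-S7A, against 193 and 214 CPM in S2A-S7A (change -0.13 ± 0.16). The inositol pyrophosphate kinase gene asp1 had 76.1 and 76.4 CPM in T4A-S7A, against 72.95 and 50.8 CPM in S2A-S7A (change 0.30 ± 0.18), and the pyrophosphatase gene aps1 had 135 and 134 CPM in T4A-S7A, against 119.7 and 147 CPM in S2A-S7A (change 0.01 ± 0.13). Libraries of the strains overlapped for pho7 and aps1 and lay close for asp1.

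**Figure D2:**
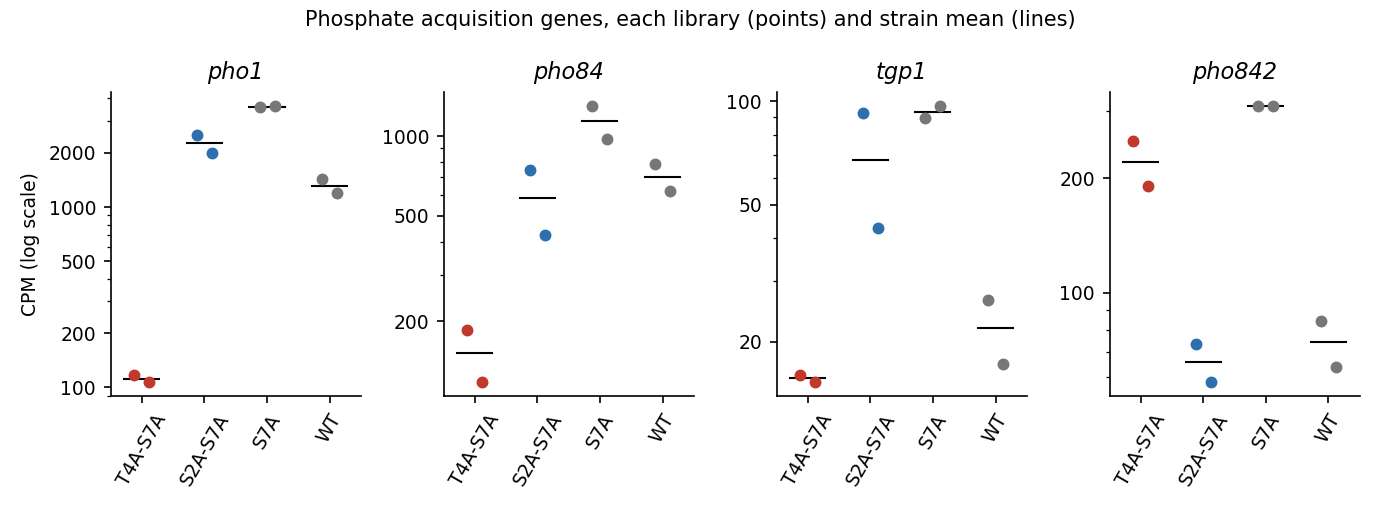
CPM on a log axis, 1 panel per gene with its own scale, for the 2 libraries (points) and the mean (line) of T4A-S7A, S2A-S7A, S7A and WT. T4A-S7A lies below the other 3 strains for pho1, pho84 and tgp1 and above S2A-S7A and WT for pho842.

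Among iron uptake genes 5 of 10 fell in T4A-S7A, 0 rose and 5 did not pass, with a median of -2.40 (6 fell with the block). The count was 3 without T4A-S7A replicate 2 and 5 without each of the other 3 libraries. The ferric reductase gene frp1 had 4.35 and 1.48 CPM in T4A-S7A, against 37.4 and 35.9 CPM in S2A-S7A, a change of -3.61 ± 0.55 (adjusted p = 0.00125). The iron permease gene fip1 had 63.1 and 38.2 CPM in T4A-S7A, against 488 and 561 CPM in S2A-S7A, a change of -3.37 ± 0.56 (adjusted p = 0.00191), and its oxidase partner fio1 had 7.51 and 5.02 CPM in T4A-S7A, against 58.1 and 64.8 CPM in S2A-S7A, a change of -3.28 ± 0.67 (adjusted p = 0.00647). No library of one strain reached the range of the other for these 3 genes. For frp1, which was among the lowest calls by rule, this was a condition. S7A and WT means were 18.04 and 47.1 CPM for fip1 and 2.83 and 3.1 CPM for frp1, nearer to T4A-S7A than to S2A-S7A. S2A-S7A was not alone in a high level. fip1 had 26.8 and 131 CPM in T4A, against 292 and 329 CPM in S2A, and 3 of the 10 genes fell between these strains (4 with the block). In Y1F and Y1F-S7A, h- strains with phenylalanine for tyrosine 1, fip1 had 608 and 929 CPM and 584 and 488 CPM.

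The neighbours shu1 and str3 on chromosome I had the largest contrasts of the list. shu1, which encodes a cell-surface heme uptake protein, had 1 and 0 reads in T4A-S7A, against 308 and 305 reads in S2A-S7A (adjusted p = 0.000661). With so few reads no fold change is given. In S7A it had 5 and 3 reads and in WT 4 and 0. The siderophore transporter gene str3 had 1.38 and 0.264 CPM in T4A-S7A, against 18.1 and 42.1 CPM in S2A-S7A, a change of -5.08 ± 1.03 (adjusted p = 0.00603), and its call was lost without T4A-S7A replicate 2 (adjusted p = 0.0558). Its T4A-S7A libraries held 44 and 5 reads, against 472 and 852 in S2A-S7A. Among the members that did not pass, str1 had 117 and 42.2 CPM in T4A-S7A, against 227 and 232 CPM in S2A-S7A, a change of -1.53 ± 0.68 (adjusted p = 0.154). The ferrichrome synthetase gene sib1 had 63.1 and 41.4 CPM in T4A-S7A, against 110.2 and 77.99 CPM in S2A-S7A, a change of -0.85 ± 0.32 (adjusted p = 0.0961), and the block gave it an adjusted p of 0.000322. str2, frp2 and sib2 had changes of 0.07, -0.18 and 0.03. Of 6 iron regulators, grx4, a glutaredoxin that senses iron, fell by 0.53 and the other 5 did not pass. The grx4 call was lost without T4A-S7A replicate 2 or either S2A-S7A library.

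The iron regulators include a GATA factor, so AGATAA and TGATAA were searched on both strands in the same 250-base windows. Each was in the promoters of fip1, fio1, frp1 and str2, 4 of the 8 iron uptake genes with a window. Over all promoters AGATAA was in 22.1% and TGATAA in 23.4%. Of these, fip1, fio1 and frp1 fell and str2 did not pass. Whether a GATA factor acts at these promoters was not tested.

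**Figure D3:**
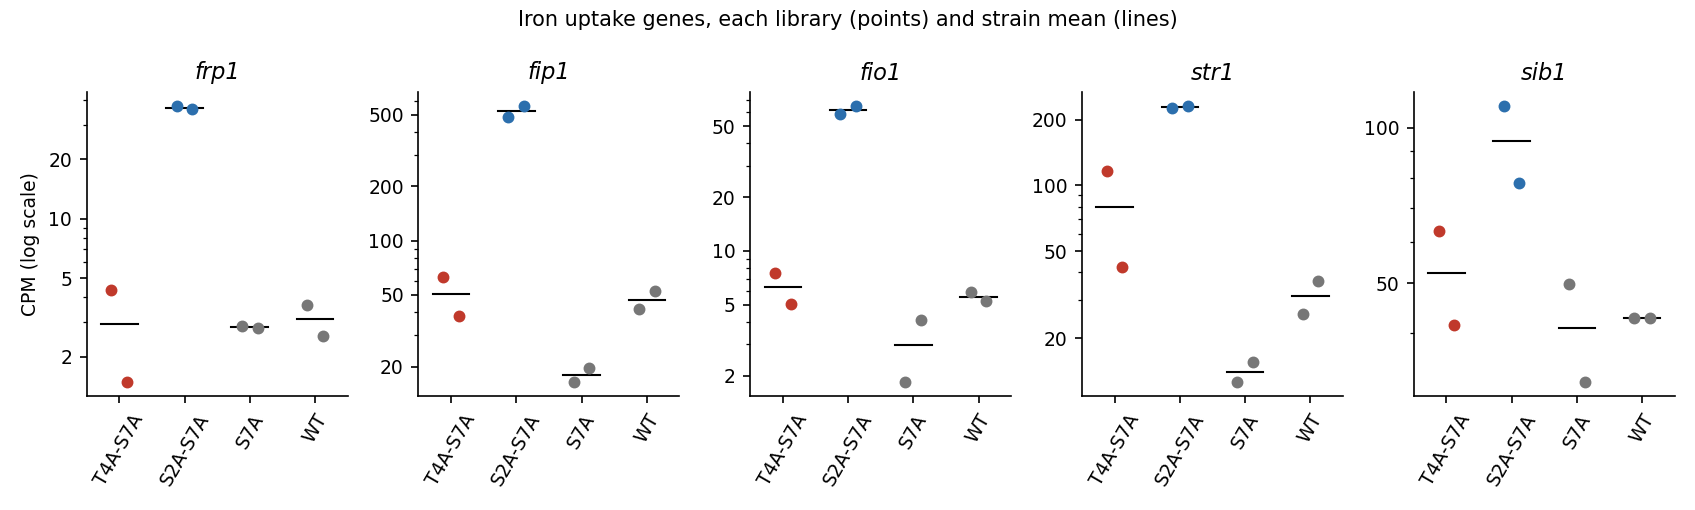
CPM on a log axis, 1 panel per iron uptake gene with its own scale, for the 2 libraries (points) and the mean (line) of T4A-S7A, S2A-S7A, S7A and WT. For frp1, fip1 and fio1 both S2A-S7A libraries lie above all others shown, and str1 and sib1 did not pass the test.

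The calls among mating and meiosis genes were mostly lower, and many depended on single libraries. Of 15 genes of the mating switch and pheromone signalling, 4 fell and 0 rose, with a median of -0.45 (8 fell with the block). With T4A-S7A replicate 1 left out 3 fell. The 4 became 0 without T4A-S7A replicate 2 and 0 without S2A-S7A replicate 2. The master regulator gene ste11 had 9.29 and 7.13 CPM in T4A-S7A, against 14.5 and 18.04 CPM in S2A-S7A, a change of -0.98 ± 0.28 (adjusted p = 0.0301). Both T4A-S7A libraries lay below both S2A-S7A libraries, and the S7A and WT means (26.05 and 23.1 CPM) lay above all 4. mei2, which encodes the RNA-binding protein that starts meiosis, had 2.47 and 0.95 CPM in T4A-S7A, against 5.3 and 7.91 CPM in S2A-S7A, a change of -1.90 ± 0.45 (adjusted p = 0.0135), with S7A at 21.01 CPM. The MAP kinase kinase gene byr1 fell by 0.69 and the meiotic non-coding RNA sme2 by 2.44. The calls of ste11 and byr1 were also lost without T4A-S7A replicate 1. The M-factor pheromone precursor gene mfm2 had 10.1 and 7.71 CPM in T4A-S7A, against 20.99 and 34.5 CPM in S2A-S7A, a change of -1.63 ± 0.40 (adjusted p = 0.0158), and was the only call among 6 M-cell genes tested (1 rose and 1 fell with the block). The P-factor precursor gene map2 fell by 1.03 and was the only call among 4 P-cell genes tested (1 rose and 2 fell with the block). The mfm2 call was lost without either T4A-S7A library or S2A-S7A replicate 2, and the map2 call without any 1 of the 4 libraries.

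Transcripts removed in growing cells by the RNA-binding protein Mmi1 gave 4 lower and 0 higher calls of 10, with a median of -0.84 (6 lower with the block, 1 lower without S2A-S7A replicate 2, and 2 lower without either T4A-S7A library). The forkhead factor gene mei4, their best studied member, had 9.04 and 10.7 CPM in T4A-S7A, against 15.2 and 20.6 CPM in S2A-S7A, a change of -0.86 ± 0.21 (adjusted p = 0.0143), and its strains did not overlap. meu6 had 13.8 and 16.4 CPM in T4A-S7A, against 29.4 and 36.97 CPM in S2A-S7A, a change of -1.14 ± 0.21 (adjusted p = 0.00386). Both T4A-S7A libraries again lay below both S2A-S7A libraries. spo5 and num1, genes of a meiotic RNA-binding protein and a dynein anchor, fell by 0.89 and 0.96. The mei4 call was lost without T4A-S7A replicate 1 or S2A-S7A replicate 2, and those of spo5 and num1 also without T4A-S7A replicate 2. Of 16 recombination genes 2 fell and 1 rose, with a median of -0.76 (6 fell with the block, 4 without S2A-S7A replicate 1, and 1 without T4A-S7A replicate 1 or S2A-S7A replicate 2). dmc1, the meiotic strand-exchange gene, had 1.44 and 1.16 CPM in T4A-S7A, against 4.84 and 5.63 CPM in S2A-S7A, and fell by 1.99 (adjusted p = 0.00245). The strains did not overlap in dmc1. The gene that rose, rec14, also encodes a subunit of the Ski complex and rose by 0.81, a call lost without replicate 2 of either strain. Of 17 sporulation genes 5 fell and 2 rose, with a median of -0.14, and without T4A-S7A replicate 2 or S2A-S7A replicate 2 only 1 fell and 0 rose. Without T4A-S7A replicate 1, 2 fell and 1 rose, and without S2A-S7A replicate 1, 4 fell and 1 rose. spo6, a kinase subunit gene, had 1.09 and 0.897 CPM in T4A-S7A, against 4.65 and 7.61 CPM in S2A-S7A, and fell by 2.60, while the ubiquitin ligase activator gene mfr1 had 1.91 and 3.11 CPM in T4A-S7A, against 0.5 and 0.791 CPM in S2A-S7A, and rose by 1.96. The mfr1 call was lost without T4A-S7A replicate 2 or either S2A-S7A library.

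Of 25 core stress genes 3 fell and 3 rose (12% each, against 9.72% and 7.57% of all features) and 19 did not pass, with a median of -0.26 (9 fell and 3 rose with the block, and 1 fell and 1 rose without T4A-S7A replicate 2 or S2A-S7A replicate 2). The small chaperone gene hsp16 had 36.2 and 23.8 CPM in T4A-S7A, against 157 and 135 CPM in S2A-S7A, a change of -2.28 ± 0.54 (adjusted p = 0.0134), with S7A at 37.6 CPM, and its call was lost without T4A-S7A replicate 2. The transcription factor gene atf1 had 111 and 126 CPM in T4A-S7A, against 179 and 178 CPM in S2A-S7A, and fell by 0.59. The MAP kinase gene sty1 had 311 and 324 CPM in T4A-S7A, against 240.3 and 237 CPM in S2A-S7A, and rose by 0.41 (adjusted p = 0.042), and its phosphatase gene pyp2 rose by 0.75. The atf1 call was lost without T4A-S7A replicate 1 or S2A-S7A replicate 2, and the pyp2 call without T4A-S7A replicate 2 or either S2A-S7A library. gst1, a glutathione S-transferase gene, had 3.91 and 5.17 CPM in T4A-S7A, against 1.31 and 0.741 CPM in S2A-S7A, and rose by 2.12 (adjusted p = 0.00303). In each stress gene given with its levels the libraries of the strains stayed apart. hsp16 was the only call among 18 heat shock chaperone genes, with 17 that did not pass (4 fell and 1 rose with the block).

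Metabolic genes gave single large calls in lists with few other calls. eno102, an enolase gene (chromosome II, 58136 to 59704), had 1.09 and 0.422 CPM in T4A-S7A, against 20.9 and 38.5 CPM in S2A-S7A, a change of -5.21 ± 0.54 (adjusted p = 0.000178), while the other 15 glycolysis genes did not pass. cmt2, a catechol O-methyltransferase gene on the same arm (64487 to 65620), had 4.1 and 2.32 CPM in T4A-S7A, against 47.9 and 71.2 CPM in S2A-S7A, a change of -4.19 ± 0.38 (adjusted p = 9.57e-05). gdh2, the NAD-dependent glutamate dehydrogenase gene, had 41.5 and 38.5 CPM in T4A-S7A, against 163 and 145 CPM in S2A-S7A, and fell by 1.94 (adjusted p = 0.000214). For eno102, cmt2 and gdh2 both T4A-S7A libraries lay below both S2A-S7A libraries. For eno102 and cmt2, which were among the lowest calls by rule, this was a condition and is no further support. The galactose epimerase gene gal10 had 5.07 and 6.86 CPM in T4A-S7A, against 21.3 and 28.1 CPM in S2A-S7A, and fell by 2.05. The thiamine genes nmt1 and thi9 fell by 2.03 and 1.05, 2 of 10 in that list (3 with the block). The zinc transporter gene zrt1 had 229.7 and 226 CPM in T4A-S7A, against 103 and 65.9 CPM in S2A-S7A, and rose by 1.44 (adjusted p = 0.00269), while the metallothionein gene zym1 fell by 1.56. The zym1 call was lost without either T4A-S7A library or S2A-S7A replicate 2, and its change ran from -2.10 to -0.68 with a library left out. None of 15 hexose transport and glucose-repressed genes passed (3 fell and 1 rose with the block, 1 fell in DESeq2, and 2 rose without S2A-S7A replicate 1).

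Of 11 flocculation genes, most for proteins of the cell surface, 2 fell and 2 rose. pfl9 had 9.39 and 9.56 CPM in T4A-S7A, against 36.7 and 25.9 CPM in S2A-S7A, and fell by 1.73, and pfl3 had 51.2 and 63.6 CPM in T4A-S7A, against 169 and 192 CPM in S2A-S7A, and fell by 1.65. pfl8, given above, and cbf12, a transcription factor gene of flocculation, rose. cbf12 had 152 and 249.8 CPM in T4A-S7A, against 89.2 and 80.9 CPM in S2A-S7A, and rose by 1.24. In pfl9, pfl3 and cbf12 the strains did not overlap, as in 3347 of the 6420 features tested. The pfl3 call was lost without either T4A-S7A library or S2A-S7A replicate 2, and the cbf12 call without T4A-S7A replicate 2 or either S2A-S7A library. The other 7 of 11 did not pass. Within 50000 bases of the ends of chromosomes I and II, 9 of 22 features tested fell (40.9%, against 9.72% of all features) and 0 rose, with a median of -2.30. The median was -2.09 with the gene at 0 in both T4A-S7A libraries set at a floor of 3 reads per library. In these windows 82 features are annotated, so most did not have enough reads. The 9 calls lay at the left ends of the chromosomes except for tlh2 (-2.17, adjusted p = 0.0141), at a right end. SPAC977.18 and ftm2, both called, overlap in position. The transcription factor gene SPBC1348.12 had 5.72 and 5.07 CPM in T4A-S7A, against 15.9 and 18.1 CPM in S2A-S7A, and fell by 1.65 (adjusted p = 0.001). grt1, another transcription factor gene there, had 0.939 and 1.06 CPM in T4A-S7A, against 4.92 and 5.88 CPM in S2A-S7A, and fell by 2.44. It overlaps the acetamidase gene fah1, which also fell (adjusted p = 0.00349). The count of 9 became 13 with the block, 4 without either T4A-S7A library, and 7 and 5 with S2A-S7A replicate 1 and 2 left out.

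Genes for RNA processing and silencing machinery were among the higher calls, with small changes. The higher share was 19.0% for capping, termination and 3′ end processing, 16.7% for Mmi1 elimination and the exosome and 25% for RNAi and heterochromatin. Of all protein-coding features tested 9.37% rose, and with the block 1202 of 4993. That share depended on level. In 4 bins of equal size by reads per kilobase it ran from 2.08% in the top bin to 15.0% in bin 2 from the bottom. The lists were not matched for level, and their shares rest on few genes. Of 21 genes for capping, termination and 3′ end processing, 4 rose and 0 fell, with a median of 0.22 (7 rose with the block, 3 without S2A-S7A replicate 1 and 2 without each of the other 3 libraries). rhn1, which encodes a termination factor that binds the CTD, had 41.7 and 37.3 CPM in T4A-S7A, against 17.99 and 14.98 CPM in S2A-S7A, a change of 1.26 ± 0.15 (adjusted p = 0.00027). ctf1, a cleavage and polyadenylation subunit gene, had 117 and 117 CPM in T4A-S7A, against 73.6 and 70.8 CPM in S2A-S7A, a change of 0.70 ± 0.11 (adjusted p = 0.00118). Neither gene's strains overlapped, and S7A means were 44.2 and 96.9 CPM. The RNA triphosphatase gene pct1 rose by 0.42 and cft2 by 0.75. The pct1 call was lost without any 1 of the 4 libraries, and the cft2 call without either T4A-S7A library or S2A-S7A replicate 2. Of 18 genes for Mmi1 elimination and the exosome, 3 rose and 0 fell, namely air1 by 0.74, rrp45 by 0.55 and rrp4 by 0.54 (9 rose and 1 fell with the block). With protein-coding scaling 1 rose and 1 fell, and without S2A-S7A replicate 2 none was called, and 1 rose without either T4A-S7A library.

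Of 20 RNAi and heterochromatin genes, 5 rose and 0 fell, with a median of 0.22 (8 rose with the block, and 2 with protein-coding scaling). The count was 0 without T4A-S7A replicate 2, 0 without S2A-S7A replicate 1 and 2 without T4A-S7A replicate 1. stc1, which links the RNAi and histone methylation complexes, had 16.9 and 23.2 CPM in T4A-S7A, against 7.38 and 11.2 CPM in S2A-S7A, a change of 1.11 ± 0.28 (adjusted p = 0.0171). Among the others, arb2, chp1 and rik1 rose by 0.76, 0.46 and 0.44. The rik1 call was lost without any 1 of the 4 libraries, that of chp1 without either T4A-S7A library or S2A-S7A replicate 1, and those of stc1 and arb2 without T4A-S7A replicate 2 or S2A-S7A replicate 1. clr4, the methyltransferase gene itself, had 38.4 and 38.5 CPM in T4A-S7A, against 30.8 and 27.6 CPM in S2A-S7A, a change of 0.39 ± 0.13 that did not pass (adjusted p = 0.0654, and 0.0188 with the block). Lists without a call were the 12 RNA polymerase II subunits (changes from -0.66 to 0.40), the 13 septin and cell separation genes and the 141 ribosomal protein genes (median 0.20). With the block, in DESeq2 and with protein-coding scaling 2 of the polymerase subunit genes fell, and 1 did without S2A-S7A replicate 1. With the block and in DESeq2 1 septin and cell separation gene rose, and without S2A-S7A replicate 1, 9 ribosomal protein genes rose. All 10 core histone genes had changes below 0, from -0.65 to -0.16, and the H2A.Z gene pht1 was the only one that passed, at -0.56 ± 0.12 (adjusted p = 0.00901). Its call was lost without T4A-S7A replicate 1 or S2A-S7A replicate 2, and 4 fell with the block. Among 12 CTD kinases and phosphatases csk1 was the only call, while 5 rose and 2 fell with the block and 2 rose and 1 fell in DESeq2. Without S2A-S7A replicate 2, 2 rose, without T4A-S7A replicate 2, 1 other gene fell, and without S2A-S7A replicate 1 none was called.

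**Figure D4:**
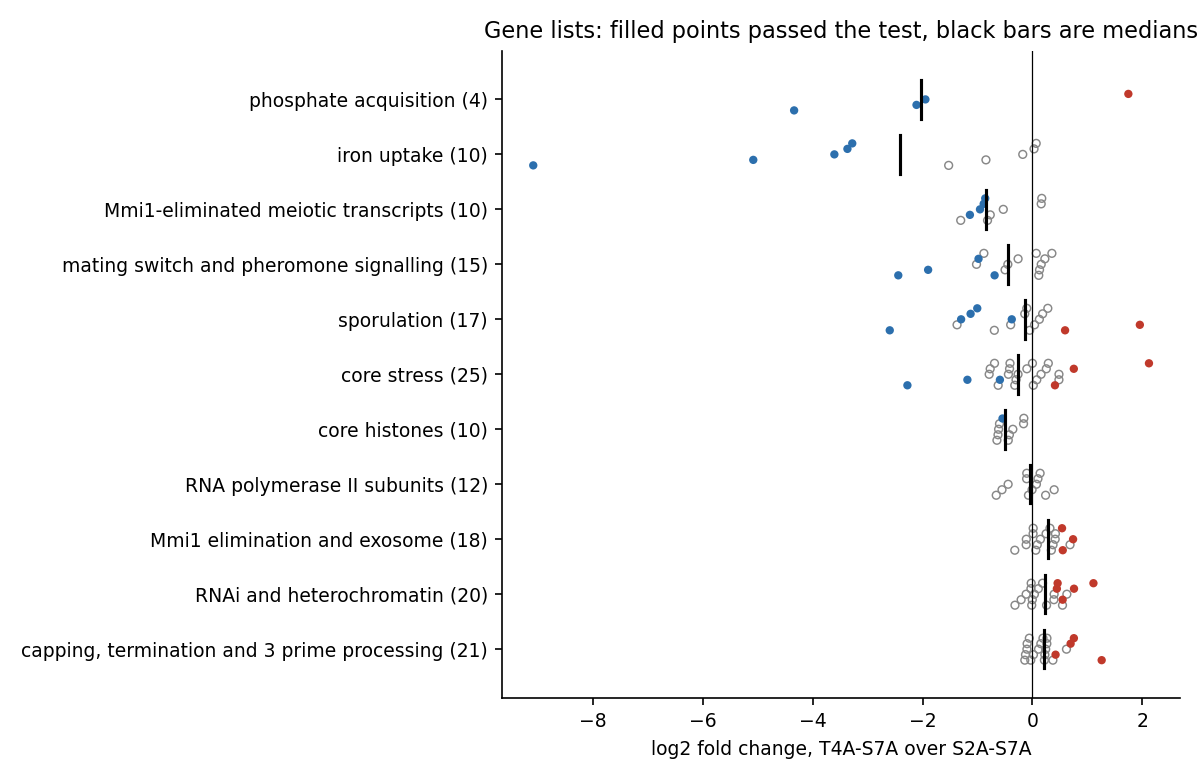
Log2 fold change of T4A-S7A over S2A-S7A for the tested members of 11 gene lists, with the number tested in brackets, filled where the adjusted p was under 0.05 (red higher, blue lower) and open otherwise, and a black bar at the median. The filled iron uptake points and 3 of 4 phosphate acquisition points lie to the left of 0 (the leftmost is shu1, whose fitted value rests on 1 and 0 reads in T4A-S7A), and the filled points of the RNAi, exosome and termination lists lie to the right.

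The highest calls by rule were modest protein-coding changes. set7, a histone methyltransferase gene (chromosome III, 1880992 to 1882276), had 21.99 and 19.7 CPM in T4A-S7A, against 4.92 and 5.24 CPM in S2A-S7A, a change of 2.04 ± 0.22 (adjusted p = 0.000214). It lies antisense to ssp1. SPCC1020.07, annotated as a pseudouridine-5′-phosphatase, had 64.3 and 68.3 CPM in T4A-S7A, against 18.1 and 14.8 CPM in S2A-S7A, a change of 2.01 ± 0.17 (adjusted p = 4.38e-05). The DNA alkyltransferase-like gene atl1 had 15.99 and 17.8 CPM in T4A-S7A, against 5.8 and 4.5 CPM in S2A-S7A, and rose by 1.71. The spermidine family transporter genes SPBC36.02c and SPBC36.01c, which are neighbours, rose by 1.70 and 1.59. SPAC1039.02, annotated as a phosphoprotein phosphatase, had 1558 and 2017 CPM in T4A-S7A, against 735 and 443 CPM in S2A-S7A, and rose by 1.60, and both T4A-S7A libraries were above the S7A (531 CPM) and WT (588 CPM) means too. Non-overlap of the strains' libraries was a condition for this group and is no further support for its genes. The rest of the highest were SPCC1620.13, tms1, SPAC26A3.11, SPCC622.07, psf3 (a replication subunit gene) and iah1, with changes from 1.51 to 1.69. With protein-coding features in 4 bins of equal size by reads per kilobase, 15.0% rose in bin 2 from the bottom and 2.08% in the top bin (416 and 133 genes with the block).

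Each double mutant was also set beside S7A, and the pair of comparisons shares the S7A libraries, so the values are given side by side without a test. Over the 624 features lower in T4A-S7A than in S2A-S7A, the median change from S7A was -0.47 in T4A-S7A and 1.15 in S2A-S7A. For the 387 non-coding RNAs among them the medians were -0.55 in T4A-S7A and 1.39 in S2A-S7A. Over the 486 higher features the medians were 0.16 in T4A-S7A and -0.53 in S2A-S7A. Over all 6420 features they were 0.01 and 0.00. pho1, pho84 and tgp1 differ from this order, since for each of them T4A-S7A was farther from S7A than S2A-S7A was.

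The same pair of replacements without S7A is T4A against S2A, which shares no library with the comparison above but sets an h- strain against an h+ one. There 376 features were higher and 675 lower in T4A than in S2A, 1051 of 6420 (16.4%; 5.86% higher and 10.5% lower), and 2356 with the replicate block. Leaving out a library gave 585 or 603 calls (T4A replicate 1 or 2) and 537 or 700 calls (S2A replicate 1 or 2). Of the 1110 features called between the double mutants, 1068 had the same sign between the single mutants (96.2%). Both comparisons called 580 features in the same direction, 196 higher and 384 lower, and 2 in opposite directions. The 580 are 52.3% of the calls between the double mutants and 55.2% of those between the single mutants. Across the 6420 features Pearson's r between the 2 sets of changes was 0.75 and Spearman's rho 0.69, a description over features that share libraries within each comparison. Of the 1333 non-coding RNAs, 29.4% were lower and 27 were higher in T4A than in S2A, with a median of -0.68.

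The difference between the double-mutant and the single-mutant comparison was tested feature by feature. It passed for 9 of 6420 features (0.14%), of which 8 were more negative with S7A and SPNCRNA.1140 was more positive. At an unadjusted p under 0.05 there were 572, and 199 passed with the replicate block and 129 in DESeq2. With a library left out the 9 became 1 without T4A-S7A replicate 2 or S2A replicate 1 and at most 6 without any other. pho1 was one of the 9. Its change was -4.34 ± 0.22 in the S7A strains, while T4A had 192 and 146 CPM and S2A 732 and 749.5 CPM, a change of -2.13 ± 0.20, which gives a difference of differences of -2.21 ± 0.27 (adjusted p = 0.00801). Its call was lost without T4A-S7A replicate 2 (adjusted p = 0.10), T4A replicate 1 or S2A replicate 1.

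**Figure D5:**
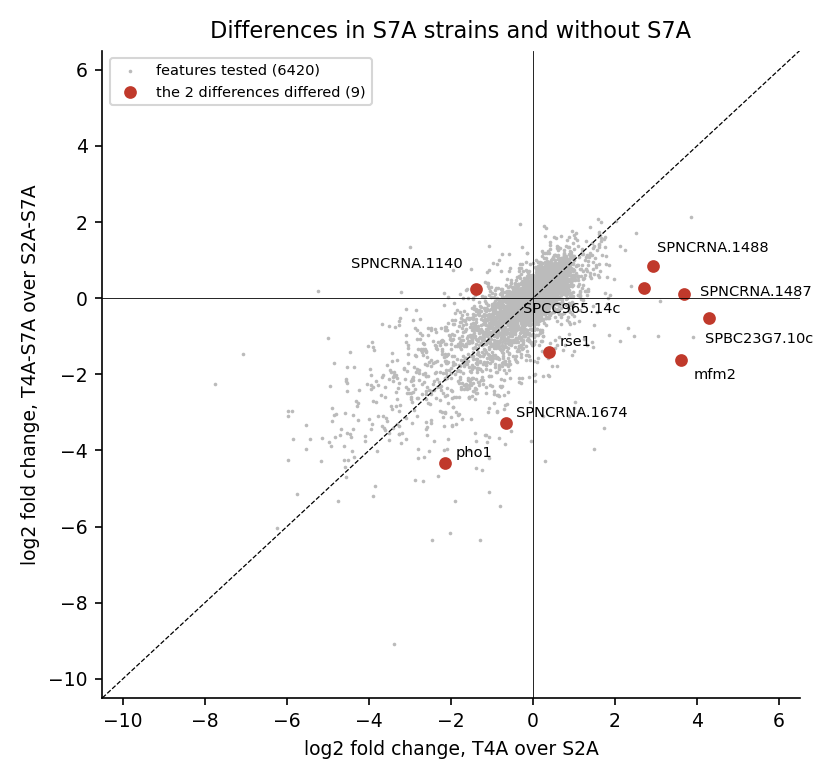
Log2 fold change of T4A-S7A over S2A-S7A (y axis) against that of T4A over S2A (x axis) for the 6420 features, with the 9 features whose 2 differences differed in red and the line of equal change dashed. Points spread along the dashed line, and pho1 and SPNCRNA.1674 lie below it on the left while mfm2, SPBC23G7.10c and SPNCRNA.1487 lie below it on the right.

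Some of these 9 are genes of M cells or lie in the mating-type region, and S2A is the only h+ strain of the 4. mfm2, a gene of M cells, changed by -1.63 ± 0.40 between the double mutants, while it had 13.8 and 16.6 CPM in T4A and 0.921 and 1.58 CPM in S2A, a change of 3.62 ± 0.47. SPBC23G7.10c, SPNCRNA.1487 and SPNCRNA.1488 lie 3118 to 8289 bases beyond the end of mat1-Mc and before mat3-Mi on chromosome II, in the mating-type region. SPNCRNA.1487 had 15.1 and 16.7 CPM in T4A-S7A, against 14.1 and 15.2 CPM in S2A-S7A, while it had 19.01 and 17.03 CPM in T4A and 1.13 and 1.72 CPM in S2A. The low level thus stood in S2A and not in S2A-S7A, and S2A with its mating type cannot be told apart from S7A in that difference. rse1 (SPNCRNA.111, chromosome II, 3978331 to 3982106), a non-coding RNA upstream of ste11 annotated as its repressor, had 51.2 and 34.1 CPM in T4A-S7A, against 110.0 and 118 CPM in S2A-S7A, a change of -1.42 ± 0.21 (adjusted p = 0.000985). Its levels were 53.1 and 69.4 CPM in T4A and 46.6 and 46.9 CPM in S2A, and its difference of differences was -1.81 ± 0.29 (adjusted p = 0.0451). The ste11 gene fell in the same libraries, so this RNA and the gene it is named for were both lower in T4A-S7A.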

How the data were processed

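Polyadenylated, stranded, paired-end RNA-seq libraries of 8 strains, 2 per strain, were pooled 8 to a lane per the labels' protocols. The authors deposited read counts per feature for 7022 features, with a feature width in bases (another quantity, not used as a level). Bowtie 0.12.7 is named in the submitters' processing notes, and the build and counting tool are not given in the sources used here. Locus tags named 6844 features and synonyms 22 through RefSeq (ASM294v3), and 156 had no match. Of 5107 protein-coding features, 99.5% shared a start or end with that reference. For 283 features, same-strand neighbours covered most of the length.

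Counts were fitted in R 4.3.3 with edgeR 4.0.16 (quasi-likelihood, robust, limma 3.58.1): filterByExpr by strain (6420 features kept), TMM factors from 0.911 to 1.154, 1 coefficient per strain over all 16 libraries, 8 residual degrees of freedom, common dispersion 0.0374, two-sided tests and Benjamini-Hochberg adjustment over all features. The method was also run on simulated counts. These were drawn without any effect of replicate number, so that run cannot show how the pairing described below bears on the calls. Alternatives were RLE factors, no filter, the replicate number as a block, the compared libraries only, DESeq2 1.42.0, each library left out and, chosen after seeing the data, scaling on protein-coding features. Libraries with the same number deviated together in all 28 pairs of strains (correlation 0.245 to 0.667 over features, 0.304 for T4A-S7A with S2A-S7A). The number was thus read as pairing libraries, but the reported fit holds no block and leaves this pairing out. Only the blocked alternative takes it in. Blocked counts stand beside the counts of the RNA classes and gene lists they move by over 1.5 times, and blocked p-values beside genes whose call they change.

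The comparison, members and gene lists were chosen with earlier results of these data known. Genes named were the 14 highest and 14 lowest calls (mean log2 CPM 3 or more, both libraries of one strain beyond both of the other), in each list with a call the 4 members lowest in adjusted p, the 5 highest and 5 lowest differences of differences, and fixed phosphate, iron, mating and marker genes. Further list members and the antisense pairs were chosen after their values were seen.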

Additional observations from a re-analysis of the deposited data

Results flagged for a closer look

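For 9 features the difference between T4A-S7A and S2A-S7A was itself different from that between T4A and S2A, tested as an interaction in edgeR with adjustment over 6420 features. On the log2 scale the difference of differences was -5.25 ± 0.61 for mfm2 (adjusted p = 0.00702), -4.80 ± 0.76 for the flavin oxidoreductase gene SPBC23G7.10c (adjusted p = 0.0451) and -3.56 ± 0.30 for SPNCRNA.1487 (adjusted p = 0.000502). It was -2.62 ± 0.43 for SPNCRNA.1674 (adjusted p = 0.0451), -2.45 ± 0.36 for the cytosine deaminase gene SPCC965.14c (adjusted p = 0.0325) and -2.21 ± 0.27 for pho1 (adjusted p = 0.00801). For SPNCRNA.1488 it was -2.08 ± 0.35 (adjusted p = 0.0483), for rse1 -1.81 ± 0.29 (adjusted p = 0.0451) and for SPNCRNA.1140 1.62 ± 0.26 (adjusted p = 0.0451). SPNCRNA.1487 passed in every alternative run and without each of the 8 libraries in turn, while each of the other 8 lost its call without at least 1 library.

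The values behind 3 of these were as follows. SPNCRNA.1674 (chromosome II, 4129574 to 4130925) had 4.25 and 3.06 CPM in T4A-S7A, against 28.7 and 43.1 CPM in S2A-S7A, while T4A had 12.5 and 12.5 CPM and S2A 18.97 and 20.5 CPM, so the strains with S7A were far apart and those without it closer. SPCC965.14c had 36.5 and 38.3 CPM in T4A-S7A, against 27.3 and 35.2 CPM in S2A-S7A, while T4A had 34.9 and 26.2 CPM and S2A 4.98 and 4.38 CPM, the lowest of the 4 strains. SPNCRNA.1140 had 19.4 and 16.5 CPM in T4A-S7A, against 13.99 and 16.6 CPM in S2A-S7A, while T4A had 7.87 and 8.98 CPM and S2A 22.3 and 21.5 CPM. S2A is the h+ strain, so a level that differs in S2A alone cannot be told apart from its mating type.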

How the results depend on the processing

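Of the 1110 features called between T4A-S7A and S2A-S7A, 1089 were also called with RLE factors (1097 in all), 1090 with no filter (1123), 971 with protein-coding scaling (1069) and 1107 in DESeq2 (1438). The replicate block gave 2412 (1250 higher, 1162 lower), with 45 non-coding RNAs higher and 570 lower. The 4 libraries alone gave 432 (112 higher, 320 lower), with 3 non-coding RNAs higher and 216 lower, and protein-coding scaling left 11 higher non-coding RNAs, a scaling that shifts the median of all features to -0.07. With a library left out, totals ran from 503 to 983, higher calls from 200 to 385, lower calls from 303 to 598, and non-coding RNAs from 4 to 10 higher and from 203 to 365 lower. For T4A against S2A the block gave 2356 (1147 higher, 1209 lower), its 4 libraries alone 590 (135 higher), DESeq2 590 higher, and a library left out 537 to 700 in all, 131 to 207 higher and 390 to 493 lower. The 9 differences of differences became 199 with the block (118 higher, 81 lower), 129 in DESeq2 (75 and 54), 3 in the 8 libraries alone (0 and 3), 5 with protein-coding scaling (0 and 5), 0 higher with RLE factors, and 1 to 6 with a library left out (0 higher, 1 to 6 lower). The cause of these shifts was not tested, beyond fewer samples in the smaller fits. Of 137 genes named by rule, 91 were called, 49 without each library in turn and 48 in every setting, and 0 reversed. A strain left with 1 library is assumed to vary like the others. Apart from the counts and calls given with the block above and in the report, the block ended no call among the 1110.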

Other observations

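Some gene lists not described above held few calls. Of 16 amino acid permease and nitrogen genes, gdh2 and the arginine and lysine transporter gene cat1 fell and the vacuolar transporter gene fnx1 rose (3 fell and 4 rose with the block). cat1 had 154 and 140.2 CPM in T4A-S7A, against 220.3 and 189 CPM in S2A-S7A, a change of -0.48 ± 0.12 (adjusted p = 0.0182), and fnx1 had 83.6 and 64.8 CPM in T4A-S7A, against 41.8 and 31.1 CPM in S2A-S7A, a change of 1.03 ± 0.21 (adjusted p = 0.00564). The cat1 call was lost without T4A-S7A replicate 2 or S2A-S7A replicate 1, and the fnx1 call without T4A-S7A replicate 1 or S2A-S7A replicate 2. Of 30 proteasome genes 2 fell, the core subunit gene pre8 by 0.49 and the regulatory ATPase gene rpt6 by 0.49 (9 fell with the block, 1 without T4A-S7A replicate 1 or S2A-S7A replicate 2, and 0 without T4A-S7A replicate 2). Of 12 sterol and low-oxygen genes the heme synthesis gene hem13 fell by 1.12, with 216 and 216 CPM in T4A-S7A, against 332 and 606 CPM in S2A-S7A, and its call was lost without either T4A-S7A library or S2A-S7A replicate 2 (3 fell with the block). The RNA of RNase MRP, mrp1, had 1.41 and 0.739 CPM in T4A-S7A, against 9.8 and 12.3 CPM in S2A-S7A, a change of -3.32 ± 0.47 (adjusted p = 0.000795), but it shares 93.7% of its length with SPNCRNA.727 on the same strand, and the reads of the pair cannot be told apart.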
